A study of Mus musculus with 57 samples.

Results

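Metallothioneins and zinc transporters were followed across 57 mouse livers, as 6 genes of the 54307 in the count table. The members were taken by symbol: the metallothioneins Mt1, Mt2 and Mt3, the zinc importer Slc39a14 (ZIP14), the zinc exporter Slc30a1 (ZnT1) and the manganese exporter Slc30a10 (ZnT10). All 6 symbols had a row. Livers came from wild-type male C57BL/6JJcl mice, aged 6 weeks before 1 week of acclimatisation, fasted for 12 h and killed 24 h after dosing. Of the gavage groups, 5 mice received thioacetamide (TAA), 7 received 4,4'-methylene dianiline (MDA), 6 received acetaminophen (APAP) and 4 received the bile duct toxicant alpha-naphthyl isothiocyanate (ANIT), with 13 mice on 0.5% methylcellulose (Ctrl) as their vehicle group. Intraperitoneal carbon tetrachloride (CCl4, 7) and galactosamine (GAL, 4) had 2 mice on 0.9% saline (CIP), and intravenous concanavalin A (ConA, 7) had 2 mice on 0.9% saline (CIV). Corn oil is named as a vehicle without a compound, and no control mouse received it, so that a compound given in corn oil and its vehicle cannot be told apart. Each compound was set against the vehicle of its route and against all 17 vehicle livers, which asks how far the transcripts of zinc-handling genes differed after each injury; zinc itself was not measured.

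Metallothioneins are small cysteine-rich proteins that bind zinc and copper in the cytosol. Mt1 and Mt2 are expressed in liver, where zinc and cadmium induce them through the metal-sensing factor MTF1, and glucocorticoids, interleukin-6 and oxidants are known to induce them as well. Mt3 is mainly known from brain. ZIP14 brings zinc, manganese and non-transferrin iron into the hepatocyte and is known as an acute-phase transporter. ZnT1 removes zinc across the plasma membrane and is itself an MTF1 target, whereas ZnT10 moves manganese out of the cell.

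MTF1 acts through metal response elements, and the promoters of the members are shown for this reason. RefSeq sequences on GRCm38.p6 were present for 5 of the 6 members, each 300 bases long with 250 before and 50 after the annotated start. The core was searched on both strands as TGCACNC and TGCGCNC, overlapping matches included, and is given in capitals. At least 1 core lay in 25.7% of all 32851 promoter windows of this length, at least 2 in 7.11%, at least 3 in 1.97% and at least 4 in 0.517%. The Mt2 window held 4 cores, those of Mt1 and Slc30a10 held 3 each, that of Slc30a1 held 2 and that of Mt3 held 1. The 250 bases upstream of Mt2 (chr8:94172368-94172617, plus strand, GRCm38.p6) carry 3 of its cores, and the stretch from chr8:94172619-94172648, just after the annotated start, carries the other. GENCODE M21 places the upstream stretch in the exon of Gm45774, an antisense noncoding transcript.
Mt2 upstream: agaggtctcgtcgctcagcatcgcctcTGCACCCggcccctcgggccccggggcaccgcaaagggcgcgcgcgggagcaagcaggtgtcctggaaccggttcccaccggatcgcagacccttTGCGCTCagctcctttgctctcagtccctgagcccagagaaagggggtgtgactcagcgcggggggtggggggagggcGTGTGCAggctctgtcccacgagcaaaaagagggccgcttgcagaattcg
Mt2 start: gtcGTGCGCAggcccaggggcgtgtgctgg
The Mt1 cores lie in chr8:94179063-94179090 and chr8:94179088-94179117 on the plus strand, across its annotated start.
Mt1 first: ctgTGCACACtggcgctccagggagctc
Mt1 second: ctcTGCACTCcgcccgaaaagTGCGCTCgg
Those of Slc30a1 lie in chr1:191906735-191906764 and chr1:191906808-191906830, and those of Slc30a10 in chr1:185454612-185454641 and chr1:185454772-185454801, all plus strand. The first Slc30a10 stretch holds 2 cores that overlap on opposite strands.
Slc30a1 first: tccGAGTGCAaagcaaagtttttttgtaaa
Slc30a1 second: gccGAGCGCAgtcgccgcggacg
Slc30a10 first: gcgGTGCGCACacccactacagcctaggtc
Slc30a10 second: caaTGCGCCCctcctcccagcagctccggt
The single Mt3 core lies after its annotated start (chr8:94152631-94152656, plus strand).
Mt3: cagTGCACACacacggagagcaggcg
A match in these windows is a description of the sequence and was not tested for binding.

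Per liver, the table held 13826343 to 35075809 estimated counts, and mitochondrial transcripts took 5.11% to 39.3% of the total. In ConA livers they took 14.6% to 39.3%, against 5.11% to 25.4% in vehicle livers. The summed level of 6 hepatocyte markers was 50478 to 116088 CPM in vehicle livers. It was 19508 to 29707 CPM in CCl4 and 25144 to 33226 CPM in GAL livers, below every vehicle liver. CPM are estimated counts relative to the library size after TMM scaling, a correction for library composition. The values look corrected for transcript length, so levels of different genes are compared per length. In a whole tissue, fewer cells of a type and less RNA per cell cannot be told apart. Ctrl mouse 18 stood apart from the other vehicle livers in Mt1 and Mt2, and the changes of Mt1 and Mt2 against Ctrl are also given without it.

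The compounds differed in how many members were called and in how far they moved. A gene was called when edgeR's quasi-likelihood test gave a Benjamini-Hochberg adjusted p under 0.05 over all genes tested. Mt3 was near 0 in vehicle livers and passed the filter on low values in 5 of the 7 comparisons, through treated livers, so the counts below cover the other 5 members, which were detected in all 57 livers. In ANIT livers all 5 were called against Ctrl, each of them higher, where 28.2% of all genes tested were called in either direction. All 5 were also called in MDA, each higher, beside 33.8% of all genes. APAP (beside 31.8%) and TAA (beside 50.5%) likewise changed all 5, 4 higher and Slc30a10 lower. The injected compounds differed. Against its saline group, CCl4 had 3 of 5 called (2 higher, 1 lower; 33.5% of all genes), as had GAL (2 higher, 1 lower; 28.5%). ConA had 4 of 5 called, all higher, beside 34.2% of all genes. The median log2 fold change over these 5 genes was 1.92 in ANIT, 2.51 in APAP, 1.78 in MDA, 1.56 in TAA, 0.81 in CCl4, 1.41 in GAL and 3.38 in ConA, whereas the median over all genes tested lay between -0.01 and 0.10. The APAP median is the value of Slc39a14, which leaned on APAP mouse 1 (1974 CPM) and was far smaller without it, as given below. Against all 17 vehicle livers the median over the 5 genes was 0.41 in CCl4 and 0.33 in GAL.

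Against all 17 vehicle livers the gavage compounds gave the same numbers of called members, beside 28.0% of all genes called in ANIT, 33.4% in APAP, 34.2% in MDA and 49.7% in TAA. For CCl4 the number was 2 of 5 (1 higher, 1 lower), beside 53.4% of all genes. It was 3 of 5 for GAL (1 higher, 2 lower; 52.5%) and 5 of 5 for ConA (4 higher, 1 lower; 68.0%). For CCl4 and GAL these shares of the 5 members are below or near the share of all genes. The 2 sets of comparisons share their treated livers, and for the gavage compounds most of their controls. Scaling to the library total instead of TMM moved the median change of all genes by 0.76 in GAL, 0.43 in CCl4, 0.16 in APAP, -0.22 in ANIT and -0.59 in ConA against the route's vehicle, so small changes in these 5 compounds depend on the scaling.

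Separation of groups has its own background. All livers of a compound lay above all 17 vehicle livers in 1.37% (MDA) to 11.7% (ConA) of all genes tested, and below them in 2.48% to 15.0%. Against the 2 CIP livers alone, GAL livers lay wholly above in 26.7% of genes and wholly below in 25.6%, so that separation from CIP says less than separation from all vehicle livers.

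**Figure D1:**
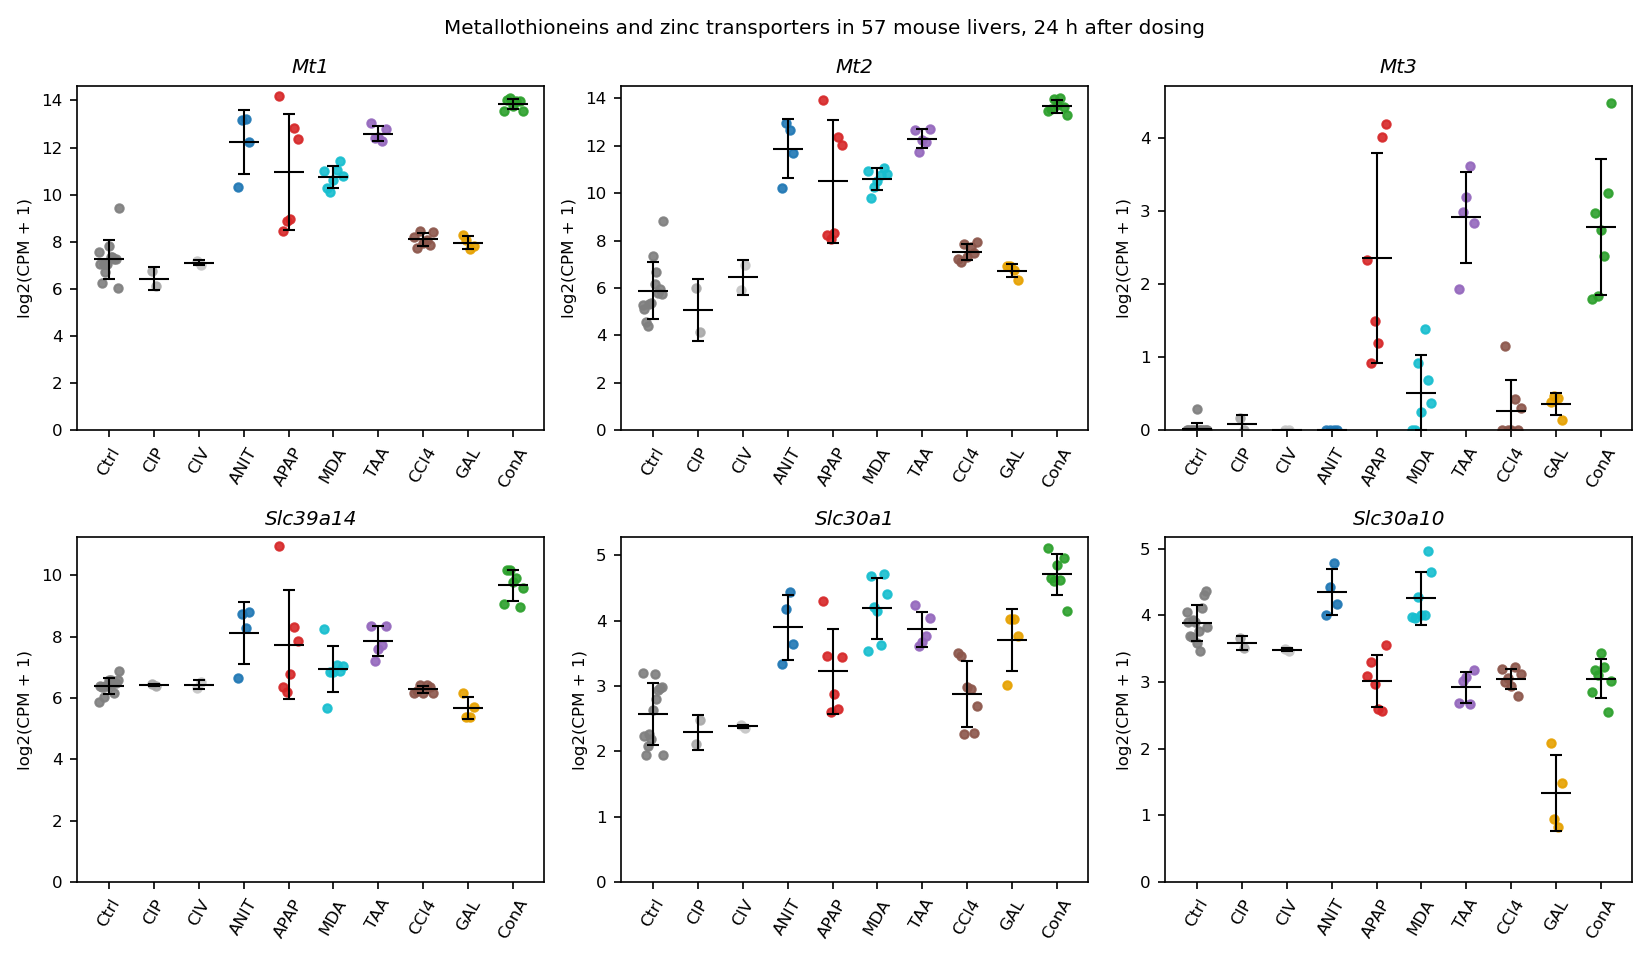
Level of each member in every liver, as log2(CPM + 1) on the vertical axis, by group on the horizontal axis; points are mice, black marks are the group mean with 1 SD. Mt1 and Mt2 are far above the vehicle groups in ConA, TAA, ANIT and MDA, spread widely in APAP and are little raised in CCl4 and GAL, while Slc30a10 is lowest in GAL.

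Mt1 rose in all 7 compounds against the vehicle of the route, by 2.83-fold in GAL to 112-fold in ConA. Vehicle livers held 64.1 CPM at the lowest, 134 at the median and 684 at the highest, the last in Ctrl mouse 18. The other 16 vehicle livers did not exceed 225 CPM. In ConA the lowest, median and highest liver held 12013, 16110 and 17642 CPM. The 5 TAA livers held 8458, 5478, 5558, 4973 and 6993 CPM, and the 4 ANIT livers 1294, 9295, 9464 and 4786 CPM. In MDA the lowest was 1107, the median 1758 and the highest 2741 CPM. Every liver of these 4 groups exceeded every vehicle liver. On the log2 scale the rise over the route's vehicle was 6.81 ± 0.35 (SE) in ConA (adjusted p 6.79e-06), 5.16 ± 0.39 in TAA (2.79e-09), 5.09 ± 0.47 in ANIT (1.46e-06) and 3.31 ± 0.34 in MDA (4.37e-07). Without Ctrl mouse 18 the gavage values were 5.54 in TAA, 5.46 in ANIT and 3.67 in MDA.

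APAP divided into livers with high and low Mt1. Mice 1, 8 and 11 held 18863, 7208 and 5341 CPM, and mice 2, 4 and 6 held 351, 478 and 504 CPM. The 3 lower livers exceeded every vehicle liver other than Ctrl mouse 18. The APAP change was 4.96 ± 0.67 (adjusted p 1.70e-05), and 3.97 without APAP mouse 1 (adjusted p 6.07e-05) and 5.33 without Ctrl mouse 18. Within mouse numbers 1 to 4 it was 5.70 (adjusted p 0.0531, 3 APAP mice), and within higher numbers 4.45 (adjusted p 7.14e-04).

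In CCl4, Mt1 ranged from 212 to 353 CPM with a median of 266, and the 4 GAL livers held 310, 272, 204 and 225 CPM. The 2 CIP livers held 109 and 68.0 CPM, below all of them. Against CIP the log2 change was 1.68 ± 0.26 in CCl4 (adjusted p 9.91e-04) and 1.50 ± 0.29 in GAL (adjusted p 0.0132). Against all 17 vehicle livers it was 0.72 ± 0.31 (adjusted p 0.0556) and 0.57 ± 0.41 (adjusted p 0.253), and neither was called. Without Ctrl mouse 18 both were called, at 1.03 (adjusted p 4.33e-05) and 0.88 (adjusted p 0.0031), and CCl4 was also called without CCl4 mouse 5 (0.80, adjusted p 0.0488). Scaled to the library total both were called as well, at 1.22 (adjusted p 0.00231) and 1.38 (adjusted p 0.00587). The GAL call against CIP was lost without CIP mouse 8 (1.15, adjusted p 0.0719).

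Mt2 followed Mt1, with larger folds in 6 of the 7 compounds. Vehicle livers ranged from 16.9 to 458 CPM with a median of 54.6, and the highest was again Ctrl mouse 18. The 4 Ctrl mice numbered 1 to 4 held 38.0, 34.0, 23.0 and 20.3 CPM, below the 9 Ctrl mice with higher numbers (38.8 to 458 CPM). ConA livers ranged from 10094 to 16416 CPM with a median of 12666. TAA livers held 6488, 3415, 4874, 4541 and 6658 CPM, ANIT livers 1183, 7842, 6466 and 3352 CPM, and MDA livers ranged from 894 to 2148 CPM with a median of 1738. None of these overlapped the vehicle livers. Mt2 rose over the route's vehicle by 7.21 ± 0.46 on the log2 scale in ConA (adjusted p 1.57e-05), 5.92 ± 0.58 in TAA (9.60e-08), 5.73 ± 0.65 in ANIT (7.86e-06) and 4.18 ± 0.51 in MDA (2.61e-06). Without Ctrl mouse 18 the gavage values rose to 6.54, 6.34 and 4.78.

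The same 3 APAP livers were high in Mt2: mice 1, 8 and 11 held 15431, 5330 and 4171 CPM, against 302, 269 and 316 CPM in mice 2, 4 and 6. The change of 5.66 ± 0.81 (adjusted p 3.26e-05) was 4.60 without APAP mouse 1 (adjusted p 1.22e-04) and 6.26 without Ctrl mouse 18. CCl4 livers ranged from 136 to 246 CPM with a median of 175, above both CIP livers (62.4 and 16.9 CPM), and Mt2 rose by 2.25 ± 0.48 on the log2 scale (adjusted p 0.00564). This value was 3.51 without CIP mouse 7 and 1.60 without CIP mouse 8 (adjusted p 0.00116 and 0.0185). Against all vehicle livers the CCl4 value was 1.14 ± 0.45 (adjusted p 0.0369). That call was lost without CCl4 mouse 1, 6, 10 or 12 (1.15, 1.10, 1.12 and 1.08; adjusted p 0.0513 to 0.0678). GAL livers held 122, 121, 106 and 80.0 CPM, and the difference from CIP was 1.41 ± 0.53 (adjusted p 0.0928), called without CIP mouse 7 (2.72, adjusted p 0.0232) or when scaled to the library total (2.13, adjusted p 0.0295). The antisense transcript Gm45774 reached at most 0.103 CPM in vehicle livers, 0.989 CPM in ConA and 2.11 CPM in APAP, and without a stated use of strand its reads and those of Mt2 cannot be told apart.

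Together, Mt1 and Mt2 took a median of 0.0187% of all estimated counts in vehicle livers. The median was 1.94% in ConA, 1.10% in TAA, 1.01% in ANIT, 0.618% in APAP, 0.370% in MDA, 0.0583% in GAL and 0.0568% in CCl4. Among all genes of a liver, Mt1 had a median rank of 796 in vehicles, 17 in ConA and 24 in TAA. In a fit of all 10 groups, with p adjusted over genes and 45 group pairs, the mean levels of Mt1 fell in the order ConA, TAA, ANIT, APAP, MDA, CCl4, GAL, Ctrl, CIV and CIP. Of the neighbours in that order, APAP exceeded MDA (1.59 ± 0.52, adjusted p 0.019) and MDA exceeded CCl4 (2.70 ± 0.53, adjusted p 7.94e-05), and no other neighbours were called. The APAP livers lay on both sides of MDA, mice 1, 8 and 11 above every MDA liver and mice 2, 4 and 6 below every one. ConA was not called above TAA (1.25 ± 0.56, adjusted p 0.102); the livers of these groups did not overlap, but did when scaled to the library total (0.70, adjusted p 0.382). For Mt2 only MDA and CCl4 were called among neighbours (3.11 ± 0.63, adjusted p 1.46e-04), and ConA and TAA (1.33 ± 0.67, adjusted p 0.146) again overlapped under that scaling alone (0.78, adjusted p 0.423). Of 21 pairs of compounds, 15 differed in Mt1 and 12 in Mt2, where 27.9% of all gene and pair combinations were called. No pair of vehicle groups differed in any member, where 1.11% of such combinations were called.

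**Figure D2:**
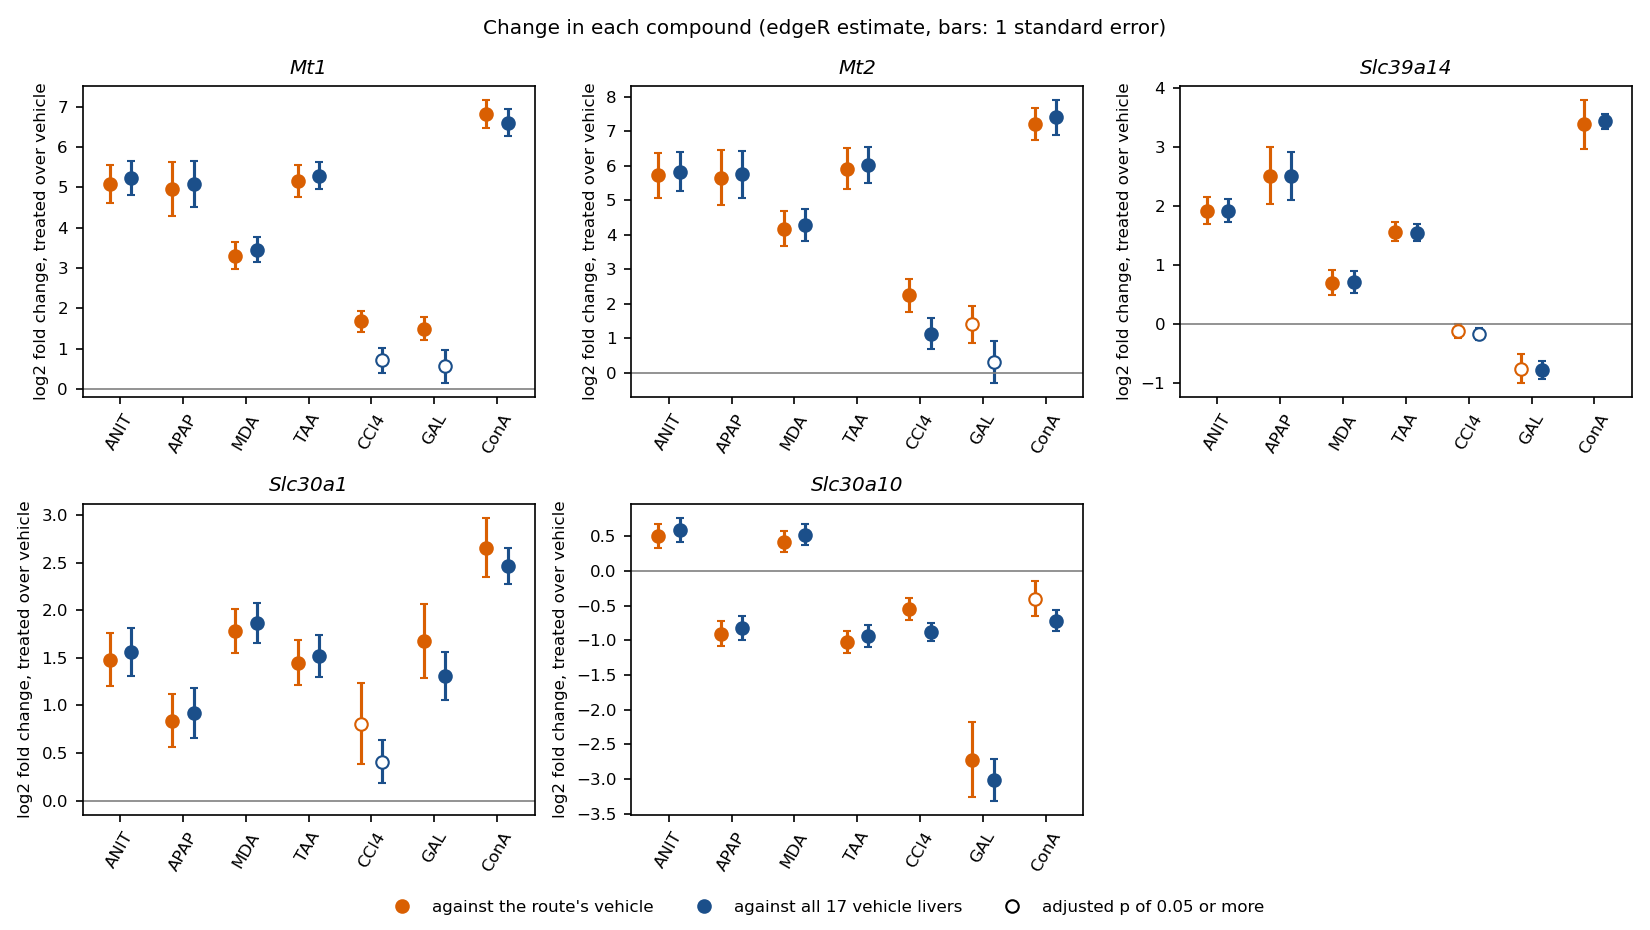
Log2 fold change of the 5 members other than Mt3 in each compound (edgeR estimate with 1 standard error), against the vehicle of the route (orange) and against all 17 vehicle livers (blue); open circles were not called. Mt1 and Mt2 are at 3.31 or more in ConA, TAA, ANIT, APAP and MDA, and Slc30a10 has called changes in both directions against the route's vehicle.

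Mt1 and Mt2 did not keep one proportion. The ratio of Mt1 to Mt2, per length, ranged from 1.05 to 6.6 in vehicle livers and from 0.918 to 1.39 in MDA livers. It was 1.05 to 1.6 in TAA, 1.09 to 1.46 in ANIT, 1.16 to 1.78 in APAP and 0.981 to 1.4 in ConA. CCl4 livers held 1.27 to 1.97 and GAL livers 1.93 to 2.81, and the range of every compound overlapped that of the vehicle livers. Ctrl mouse 18, at 1.5, lay inside the range of the other vehicle livers. The difference in mean log2 ratio from Ctrl was -1.21 in MDA (mean 0.17 ± 0.22 SD, n = 7, against 1.38 ± 0.73, n = 13), with p 1.55e-04 in a two-sided exact permutation test and 0.00105 after adjustment over 14 tests. It was -1.09 in TAA, -1.02 in ANIT and -0.91 in APAP (exact permutation, adjusted p 0.0098, 0.0161 and 0.0139). Against the saline group of the route the difference was -0.82 in CCl4, -0.48 in ConA and -0.17 in GAL, none of them called. There the test could not go below p 0.0556 for ConA and CCl4 or 0.133 for GAL. Against all vehicle livers ConA differed by -1.10 (adjusted p 0.00105, exact permutation), CCl4 by -0.71 (0.0215) and GAL by -0.06 (0.878).

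**Figure D3:**
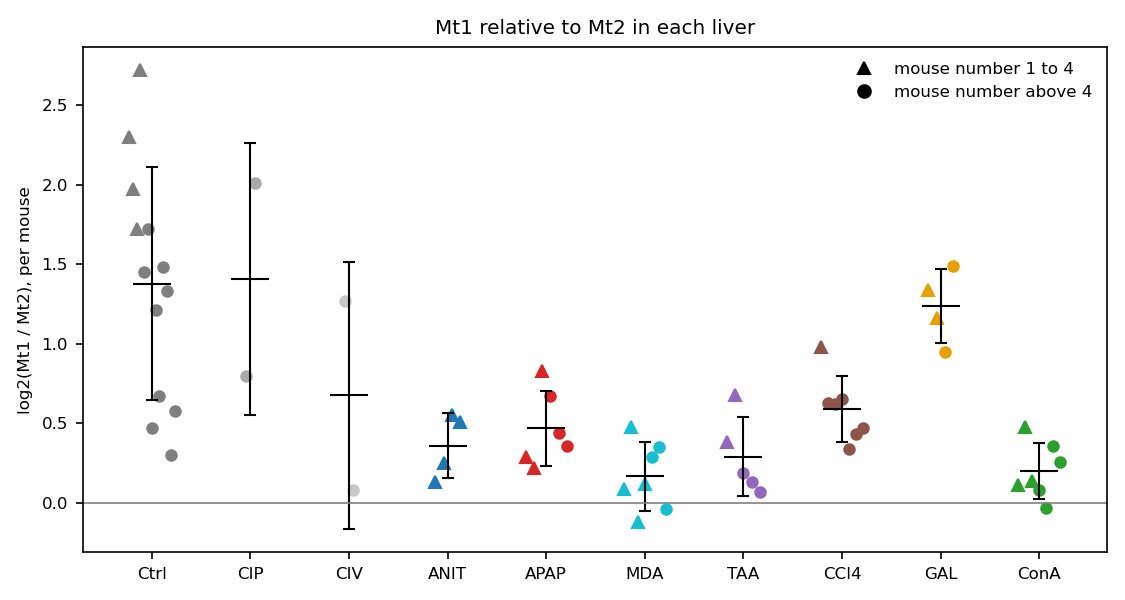
Log2 of Mt1 over Mt2 in each liver (vertical axis) by group (horizontal axis), triangles for mice numbered 1 to 4 and circles for higher numbers; black marks are the group mean with 1 SD. Ctrl mice numbered 1 to 4 lie at 1.72 to 2.72, above every treated liver, and the mean of the treated groups runs from 0.17 in MDA to 0.59 in CCl4 and 1.24 in GAL.

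The vehicle ratio differed with the mouse number. It was 3.3 to 6.6 in Ctrl mice numbered 1 to 4 and 1.23 to 3.29 in the other 9, and what differed between these number ranges is not given in the sources used here. Within numbers 1 to 4 the difference from Ctrl was -1.82 in ANIT and -2.04 in MDA (adjusted p 0.04 each, exact permutation), -1.73 in APAP (0.08) and -1.65 in TAA (0.17), where the test could not go below an unadjusted p of 0.0571 in APAP and 0.133 in TAA. Within higher numbers it was -0.82 in MDA (adjusted p 0.0255, exact permutation), -0.89 in TAA (0.0161) and -0.53 in APAP (0.197), with no ANIT mice. Mt1 and Mt2 are close paralogs, and whether reads that fit both were divided evenly was not tested.

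Mt3 appeared in APAP, TAA and ConA livers. It was listed at 0 in 15 of 17 vehicle livers, and the other two held 0.222 CPM (Ctrl mouse 9) and 0.129 CPM (CIP mouse 7), each about 1 read. The 6 APAP livers held 4.01, 0.899, 1.83, 1.29, 15.1 and 17.3 CPM in mice 1, 2, 4, 6, 8 and 11. TAA livers held 2.84, 6.91, 8.11, 11.3 and 6.17 CPM, and ConA livers ranged from 2.49 to 21.3 CPM with a median of 5.70. All livers of these 3 groups exceeded every vehicle liver. MDA livers ranged from 0 to 1.61 CPM, CCl4 from 0 to 1.22 and GAL from 0.106 to 0.382, and Mt3 was 0 in all 4 ANIT livers.

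Summed over livers, Mt3 gave 299 reads in APAP and 268 in TAA against 1 read in Ctrl. After correction for depth this is a ratio of 547 in APAP (exact 95% interval 97.5 to 21683) and 535 in TAA (95.2 to 21197), intervals that cover counting error only. Against all vehicle livers the ratio was 437 in ConA (120 to 3635), 28.8 in MDA (7.13 to 252), 12.6 in CCl4 (2.89 to 114) and 13.1 in GAL (2.71 to 124), the last pair from 14 and 9 reads. Single livers weigh on these sums: ConA mouse 12 held 21.3 CPM, MDA mouse 7 1.61 CPM and CCl4 mouse 5 1.22 CPM. Against CIP alone, with 1 read, the ratio was 3.13 in CCl4 (0.476 to 132) and 3.25 in GAL (0.45 to 142). In ConA, mean Mt3 was at least 20.2-fold higher than in CIV, whose 2 livers had no read. Each CIV liver was set to a floor of 3 reads (0.365 CPM on average). Since Mt3 reached the test only through treated livers, no p-value of it is given.

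Mt4, the neighbouring metallothionein known from stratified epithelia, was listed at 0 in all 17 vehicle livers and in every ANIT, CCl4 and GAL liver. It reached 17.8, 65.8 and 45.3 CPM in APAP mice 1, 8 and 11 and was 0 in the other 3. Those 3 mice were also the highest of their group in Mt1, Mt2 and Mt3. TAA livers held 0, 7.41, 4.57, 6.14 and 3.90 CPM, and ConA livers ranged from 0.363 to 11.8 CPM. Mt4 passed the filter in 1 comparison only, through the ConA livers, and no test of it is given.

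Markers of the red cell lineage were summed beside Mt3, and the sum does not tell precursors in the liver from red cells in its blood. The summed level of the 5 markers, Alas2 and 4 globins, was 94.2 to 379 CPM in vehicle livers, 2945 to 5228 CPM in TAA and 1242 to 6908 CPM in ConA. In APAP it was 2319 and 1392 CPM in mice 8 and 11, the mice with the most Mt3, 207 CPM in mouse 1, and 128, 303 and 469 CPM in mice 2, 4 and 6. It was 72.3 to 383 CPM in ANIT, 67.1 to 267 CPM in MDA, 80.4 to 474 CPM in CCl4 and 104 to 197 CPM in GAL. Their part in the Mt3 result was not tested. The summed level of 6 neutrophil markers was 158 to 820 CPM in TAA and 126 to 287 CPM in ConA, against 2.11 to 61.0 CPM in vehicle livers, where Ly6g was at 0.

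The importer Slc39a14 rose in 5 of 7 compounds and most in ConA. Vehicle livers held 57.1 to 117 CPM with a median of 83.7. ConA livers ranged from 499 to 1161 CPM with a median of 883, and TAA livers held 325, 148, 193, 209 and 324 CPM. All livers of both groups lay above the vehicle range. The log2 fold change against the route's vehicle was 3.38 ± 0.41 in ConA (adjusted p 2.60e-04) and 1.56 ± 0.16 in TAA (2.13e-07). In ANIT, mouse 1 held 98.3 CPM, inside the vehicle range, and the other 3 held 425, 310 and 445 CPM (1.92 ± 0.23, adjusted p 1.37e-05).

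In APAP, mouse 1 held 1974 CPM, mice 8 and 11 held 315 and 233 CPM, and mice 2, 4 and 6 held 80.0, 72.5 and 108 CPM. The 3 highest were again those with the most Mt1. The change of 2.51 ± 0.48 (adjusted p 5.51e-04) was 0.97 without mouse 1 (adjusted p 0.00712). MDA livers held 304 CPM in mouse 1 and 50.5 to 133 CPM in the other 6. The MDA change of 0.70 ± 0.21 (adjusted p 0.0136) was 0.38 without mouse 1 and no longer called (adjusted p 0.0722), nor was it when scaled to the library total (0.66, adjusted p 0.0687).

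CCl4 livers (70.3 to 85.4 CPM) differed from CIP by -0.12 ± 0.12 on the log2 scale (adjusted p 0.478). The 4 GAL livers held 69.9, 40.9, 40.9 and 51.1 CPM, all below both CIP livers (86.6 and 83.7 CPM). The GAL difference was -0.75 ± 0.24 against CIP (adjusted p 0.06), and called without GAL mouse 2 (-0.93, adjusted p 0.00638). Against all vehicle livers it was -0.78 ± 0.15 (adjusted p 1.43e-04). Scaled to the library total it was 0.02 and 0.06, so the direction in GAL rests on the scaling. The CCl4 difference also turned to a rise under that scaling, called against all vehicle livers. No neighbouring groups in the order of Slc39a14 levels were called, although 13 of 21 compound pairs were.

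**Figure D4:**
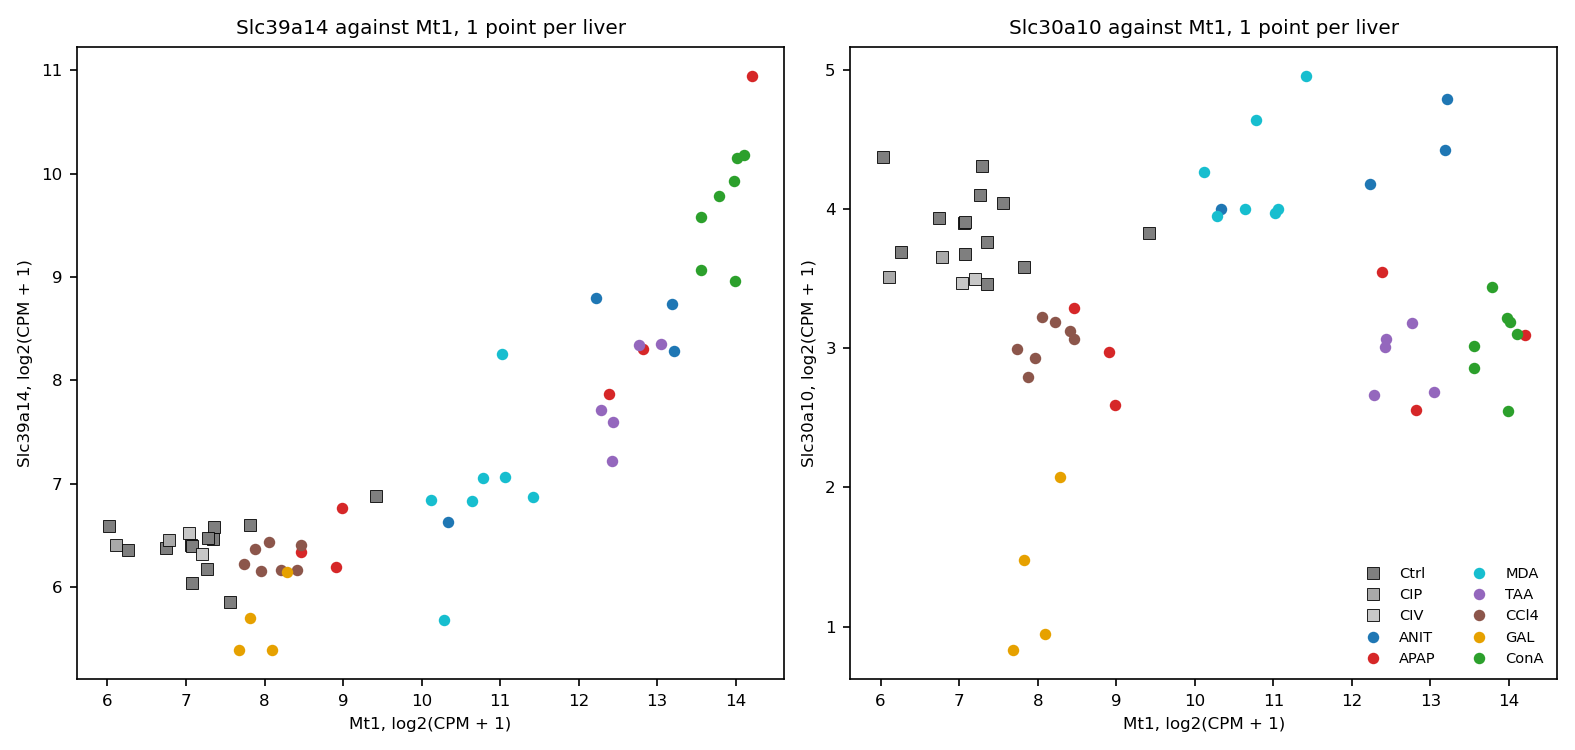
Slc39a14 (left) and Slc30a10 (right) on the vertical axis against Mt1 on the horizontal axis in each of 57 livers, all as log2(CPM + 1), with squares for vehicle livers and circles coloured by compound. The 3 APAP livers with the most Mt1 are also the 3 with the most Slc39a14, and 1 MDA liver, mouse 1, lies at 304 CPM of Slc39a14 against 50.5 to 133 CPM in the other 6; the 4 GAL livers lie lowest in Slc30a10.

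The exporter Slc30a1 rose in 6 of 7 compounds, by 1.79-fold in APAP to 6.31-fold in ConA. Vehicle livers held 2.83 to 8.21 CPM with a median of 4.28. ConA livers ranged from 16.8 to 33.6 CPM with a median of 24.1, and MDA livers from 10.6 to 25.1 with a median of 17.5. TAA livers held 17.9, 11.2, 11.7, 12.6 and 15.4 CPM and ANIT livers 9.14, 17.0, 20.7 and 11.5 CPM. These 4 groups lay wholly above the vehicle livers. Over the route's vehicle, Slc30a1 rose on the log2 scale by 2.66 ± 0.31 in ConA (adjusted p 1.96e-04), 1.78 ± 0.23 in MDA (5.61e-06), 1.48 ± 0.28 in ANIT (7.41e-04) and 1.45 ± 0.24 in TAA (5.68e-05).

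GAL livers held 7.06, 15.3, 15.2 and 12.6 CPM, above both CIP livers (3.30 and 4.58 CPM). Slc30a1 differed from CIP by 1.68 ± 0.39 in GAL (adjusted p 0.0232). That call was lost without GAL mouse 4 or 8 or either CIP mouse (1.58, 1.68, 1.51 and 1.86; adjusted p 0.0559 to 0.128), whereas against all vehicle livers the value was 1.31 ± 0.25 (adjusted p 1.49e-04). APAP livers held 18.7, 9.96, 5.07, 6.38, 5.29 and 9.83 CPM, 3 of them within the vehicle range. The APAP change of 0.84 ± 0.28 (adjusted p 0.0286) was lost without mouse 1 (0.50, adjusted p 0.169) or mouse 11 (0.82, adjusted p 0.056). CCl4 livers (3.78 to 10.4 CPM) were not called, at 0.81 ± 0.43 (adjusted p 0.185), but were when scaled to the library total (1.24, adjusted p 0.0375).

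Slc30a10 was the only member called in both directions against the vehicles of the routes, higher in 2 compounds and lower in 4. Vehicle livers held 10.0 to 19.7 CPM with a median of 12.6. The 4 GAL livers held 3.22, 0.932, 0.777 and 1.79 CPM, TAA livers 5.45, 7.06, 7.40, 5.34 and 8.06 CPM, and CCl4 livers 5.94 to 8.37 CPM with a median of 7.36. Every liver of these 3 groups was below every vehicle liver. Against the route's vehicle, Slc30a10 fell by 2.72 on the log2 scale in GAL (SE 0.54, adjusted p 0.0146), by 1.03 in TAA (SE 0.16, adjusted p 2.36e-05) and by 0.55 in CCl4 (SE 0.16, adjusted p 0.0262). Without CIP mouse 7 or 8 the GAL value was -2.57 or -2.86 (adjusted p 0.0816 and 0.0706) and the CCl4 value -0.44 or -0.65 (adjusted p 0.185 and 0.0754). Against all 17 vehicle livers the values were -3.01 ± 0.30 in GAL (adjusted p 2.47e-08) and -0.88 ± 0.13 in CCl4 (adjusted p 2.35e-06). Scaled to the library total, the CCl4 value against CIP was -0.13 and not called (adjusted p 0.654).

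APAP livers held 7.55, 8.80, 6.84, 5.02, 4.89 and 10.7 CPM, and Slc30a10 fell by 0.91 (SE 0.18, adjusted p 5.51e-04). ConA livers (4.84 to 9.85 CPM) were all below the vehicle livers. The ConA difference was -0.40 ± 0.25 against CIV (adjusted p 0.247) and -0.72 ± 0.15 against all vehicle livers (adjusted p 9.83e-05). With scaling to the library total, the first was -0.99 (adjusted p 0.0644), and the same contrast in the fit of all groups was then called (adjusted p 0.0332). ANIT livers held 15.0, 20.5, 26.7 and 17.1 CPM and MDA livers 14.5 to 30.1 CPM, overlapping the vehicle range. The rise was 0.50 ± 0.17 in ANIT (adjusted p 0.0302) and 0.42 ± 0.15 in MDA (adjusted p 0.038). The ANIT call was lost without ANIT mouse 2 or 3 (0.49 and 0.33; adjusted p 0.0774 and 0.208), and the MDA call without MDA mouse 3, 8 or 12 or Ctrl mouse 18 (0.43, 0.26, 0.34 and 0.40; adjusted p 0.0551 to 0.176). Scaled to the library total, Slc30a10 was called in neither ANIT nor MDA against Ctrl (0.29 and 0.39; adjusted p 0.322 and 0.154).

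In the fit of all groups GAL lay below TAA, its neighbour in the order of Slc30a10 levels, by 1.99 ± 0.28 on the log2 scale (adjusted p 1.55e-07), and it differed from each of the other 6 compounds. MDA exceeded TAA by 1.49 ± 0.24 (adjusted p 2.00e-06) and ANIT exceeded APAP by 1.44 ± 0.25 (adjusted p 7.98e-06). These 4 gavage compounds share their vehicle group. Of 21 compound pairs, 14 differed in Slc30a10.

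The other zinc transporters were called in both directions. Counts are given over the genes tested in all 7 comparisons with the vehicle of the route, 11 of 13 other ZIP genes, which bring zinc into the cytosol, and 5 of 8 other ZnT genes, which move it out. Of the 11 ZIP genes, ANIT had 3 higher and 1 lower (36.4% called, beside 28.2% of all genes), APAP 2 and 1 (27.3%, beside 31.8%), MDA 1 and 2 (27.3%, beside 33.8%) and GAL 1 and 3 (36.4%, beside 28.5%). ConA had 2 higher and 2 lower (36.4%, beside 34.2%), TAA 4 and 3 (63.6%, beside 50.5%) and CCl4 5 and 1 (54.5%, beside 33.5%). With 11 genes these shares are too coarse to be set apart from those of all genes. Against the vehicle of the route, Slc39a6 (ZIP6) had the largest called change of the other ZIP and ZnT genes in TAA, CCl4, GAL and ConA. It held 0.370 to 2.03 CPM in vehicle livers, 4.99 to 8.12 CPM in CCl4 and 4.47 to 6.77 CPM in ConA. The 4 GAL livers held 3.54, 5.89, 6.38 and 5.69 CPM and the 5 TAA livers 2.76, 4.23, 5.18, 5.23 and 4.99 CPM. All livers of these groups were above the vehicle livers. The log2 fold change against the route's vehicle was 3.84 ± 0.28 in CCl4 (adjusted p 1.67e-05), 3.64 ± 0.40 in GAL (0.00277), 2.85 ± 0.37 in ConA (3.91e-04) and 1.83 ± 0.25 in TAA (5.33e-06). Against all vehicle livers it was smaller for the injected compounds, 2.38 in CCl4, 2.21 in GAL and 2.34 in ConA, and 2.03 in TAA, all 4 called. Slc39a5 (ZIP5) fell by 1.65 in MDA (SE 0.28, adjusted p 1.11e-04).

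Of the 5 ZnT genes, APAP and CCl4 had 2 called higher, TAA 2 higher and 1 lower, ANIT and MDA 1 higher each, ConA 1 lower and GAL none, too few genes to set against the share of all genes. Slc30a5 (ZnT5), of the secretory pathway, rose by 1.15 ± 0.20 in ANIT (adjusted p 4.94e-04), and Slc30a7 (ZnT7) by 1.00 ± 0.27 in APAP (adjusted p 0.00856). Mtf1, the metal-sensing factor, held 3.41 to 7.61 CPM in vehicle livers and 12.3 to 16.3 CPM in the 4 GAL livers, all above them. It was called higher in GAL (1.09 ± 0.21, adjusted p 0.0137), ConA (1.04 ± 0.31, 0.0262), TAA (0.64 ± 0.09, 1.41e-05) and ANIT (0.56 ± 0.14, 0.00576). The GAL call was lost without CIP mouse 7 or 8 (1.02 and 1.15; adjusted p 0.0754 and 0.0652) and the ConA call without CIV mouse 8 (0.78, adjusted p 0.165). Scaled to the library total, Mtf1 was called in neither ConA nor ANIT (0.43 and 0.35; adjusted p 0.487 and 0.15).

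**Figure D5:**
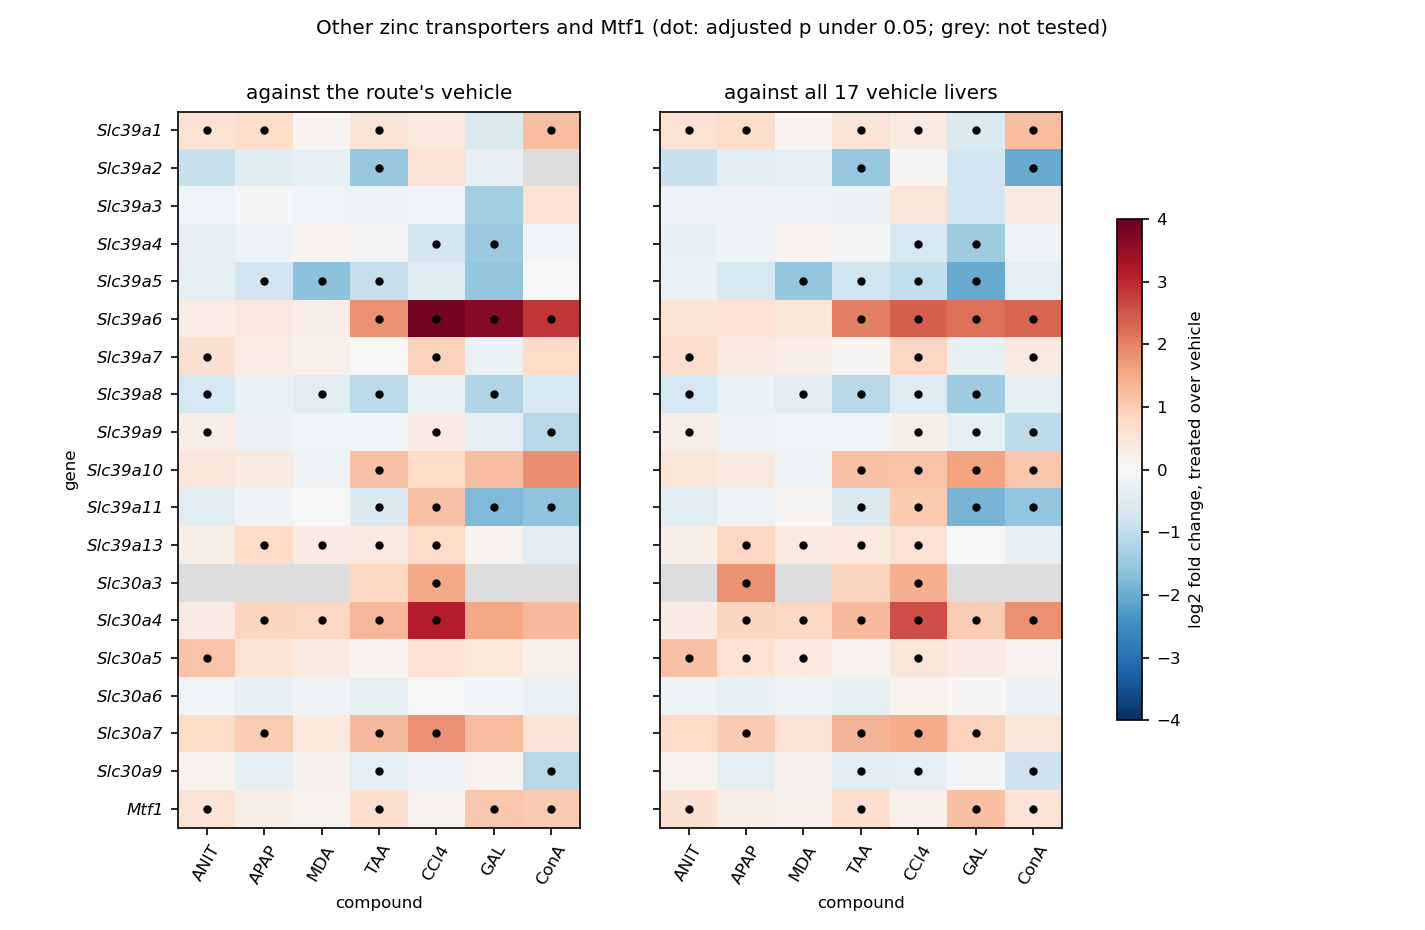
Log2 fold change of the other ZIP and ZnT genes and Mtf1 (rows) by compound (columns), against the vehicle of the route (left) and all 17 vehicle livers (right); red is higher, blue lower and grey not tested, and dots mark called changes. Slc39a6 is raised in TAA, CCl4, GAL and ConA, at 1.83 to 3.84 on the left.

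Genes of the known inducing pathways were counted beside the members, against the vehicle of the route and over the genes tested in all 7 comparisons. All genes were called in 28.2% of cases in ANIT, 31.8% in APAP, 33.8% in MDA, 50.5% in TAA, 33.5% in CCl4, 28.5% in GAL and 34.2% in ConA. Of 7 genes of the IL-6 and STAT3 list, 5 were higher in ANIT, APAP and MDA (71.4%) and 4 in ConA (57.1%). The acute-phase genes Saa2 and Saa1 led in ANIT (log2 fold change 4.12 and 4.05), Socs3, the feedback inhibitor of STAT3 signalling, and Saa2 in APAP (3.72 and 3.53), Saa1 and Socs3 in MDA (2.81 and 2.66) and Saa2 and Saa1 in ConA (6.14 and 5.61). In TAA 3 were higher (42.9%, below the share of all genes), led by Socs3 and Il1b (3.29 and 2.66), and in CCl4 3 were higher and 1 lower, led by Saa2 and Saa1 (2.57 and 2.16). GAL had 3 lower and none higher, led by Saa2 and Saa1 (-3.59 and -2.47). Il6 itself passed the filter only in ConA, through the livers where it is high, and is not counted.

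Of 6 genes of the NRF2 list, the oxidant-response genes, all 6 were higher in MDA, 5 in ANIT, TAA, CCl4 and GAL (83.3%), 4 in APAP (66.7%) and 1 in ConA (16.7%), and none was lower against the vehicle of the route. Hmox1, the heme oxygenase, and Srxn1, which encodes sulfiredoxin, led in ANIT (2.82 and 2.34), APAP (2.52 and 2.34), MDA (1.90 and 2.60) and TAA (3.69 and 3.53), as in CCl4 (1.59 and 4.94) and GAL (2.54 and 3.99). In ConA only Hmox1 was called against CIV (3.54), while against all vehicle livers 3 were higher, Hmox1, Srxn1 (1.89) and Txnrd1 (0.80), and 3 lower, Gclm (-0.58), Nqo1 (-0.57) and Gclc (-0.48), beside 68.0% of all genes called. Slc7a11, the cystine transporter gene, passed the filter only in TAA, CCl4 and GAL, through the livers where it is high, and is not counted.

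Of 7 glucocorticoid-responsive genes, 4 were higher and 1 lower in TAA and in ConA (71.4%). In ANIT, APAP and MDA 2 were higher and 1 lower, and in CCl4 and GAL 1 was higher and 2 lower (42.9% in each). Tsc22d3, which encodes GILZ, was among the 2 leading genes in 6 compounds and lower in each, from -1.66 in APAP to -2.59 in TAA. The clock gene Per1 was higher in 6 compounds, from 1.19 in GAL to 4.90 in ConA, and not called in CCl4 (0.79, adjusted p 0.0824). Fkbp5 was higher in 5, MDA (2.41), ANIT (2.03), APAP (1.63), TAA (1.60) and ConA (1.34). Zbtb16 was lower in CCl4 (-2.19) and GAL (-1.85), the latter not called against all vehicle livers (-1.24, adjusted p 0.137). The part of these pathways in the metallothionein result was not tested.

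Across the 57 livers, the 5 genes whose pattern was most like each member were ranked by Pearson's r of log2(CPM + 1) among 12240 genes, as a description over libraries that share groups and depth. Nearest to Mt1 were Mt2 (r 0.99), Cebpd, Chd9 and Litaf (0.92 each) and Rasd1 (0.91). Nearest to Mt2 were Mt1, Rbm3 (0.94), Chd9 (0.92), Gm20186 and Rasd1 (0.91 each). Mt3 was most like Gml (0.94), Gprc5b (0.92), Cd93, Gml2 and Fabp4 (0.91 each). For Slc39a14 they were Stat3 (0.94), Serpina3n (0.93), Ell and Xbp1 (0.92 each) and Slc10a6 (0.91). Values were lower for Slc30a1, with Tmem87b (0.84), Zfp746 and Rnf19a (0.83 each), Gcnt2 (0.82) and Scyl2 (0.81), and for Slc30a10, with Slc37a4 (0.88), Slc25a13, Timd2, Abhd15 and Etnk2 (0.87 each).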

How the data were processed

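Liver RNA of 57 mice was sequenced as stranded poly(A) libraries, single-end. The authors deposited estimated counts per gene, made with Salmon 1.6.0 and R 4.1.3 on GRCm39, per the submitters' processing notes; neither annotation nor strand setting is given in the sources used here. The values look length-corrected (Spearman rho -0.951 between the smallest value above 0 and transcript length over 5409 single-transcript genes). Symbols came from GENCODE M21 (51482 of 54307 genes matched), promoters from RefSeq on GRCm38.p6. Counts were rounded, filtered with filterByExpr, scaled by TMM and tested with edgeR 4.0.16 (quasi-likelihood, Benjamini-Hochberg over all genes, threshold 0.05) in R 4.3.3, in fits of the 2 sides compared or of all 10 groups. Per-mouse CPM are unrounded. DESeq2 1.42.0 and limma 3.58.1 (pseudocount 1), library-total scaling, other filters, number ranges, the replicate block and leaving out each treated, CIP or CIV mouse in turn, and Ctrl mouse 18, were alternatives. The Mt1 to Mt2 ratio was tested by exact permutation, two-sided. The fits were tested on simulated data. Members and lists were chosen with earlier results of these data known. Named genes are the members, Mtf1 and Mt4, and the 5 genes most like each member. The other ZIP or ZnT gene with the largest called change against each route's vehicle, or called in at least 5 of 7, is named. So are the 2 leading called genes of each inducer or metal list, with ties. The labels do not say whether mice of a group were housed or handled separately, and p-values measure the spread between these mice.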

Additional observations from a re-analysis of the deposited data

Results flagged for a closer look

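Mt3 in CCl4 was marked because 1 liver lay far from the rest of its group. CCl4 mouse 5 held 1.22 CPM, the next highest 0.342 CPM, and on the log2(CPM + 1) scale the gap was 0.632 of the whole range of the 7 livers. Of 48 groups of values from 4 to 10 mice tested in this way it was the only one, where chance marks about 1 in 20; Ctrl, with 13 mice, was not tested, so that the high Mt1 and Mt2 of Ctrl mouse 18 are outside this count. At this depth 1 read of Mt3 corresponds to 3.75 estimated counts, so the CCl4 values rest on 14 reads in all.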

How the results depend on the processing

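Of 590 fold changes of the 5 members other than Mt3 recomputed under another setting, 521 kept their direction and their side of the threshold, 45 lost the call, 19 gained one and 5 changed sign; of 485 with 1 mouse left out the numbers were 455, 25, 5 and 0. The Mt1 to Mt2 ratio is not among these. Counts below are of these 5, and the percentages give all genes called under the same setting. With scaling to the library total, 3 members were called in MDA against Ctrl in place of 5 (25.9%, in place of 33.8%), and 5 in CCl4 against all vehicles in place of 2 (62.5%, in place of 53.4%). Under the same scaling Slc39a14 changed sign in CCl4 (0.32 against CIP, 0.35 against all vehicles) and in GAL (0.02 and 0.06). GAL against CIP had 5 called with DESeq2 (37.6%) and with limma on log2(CPM + 1) (30.3%), in place of 3 (28.5%), and MDA against Ctrl 3 with limma (34.0%). Within mouse numbers 1 to 4, 1 member was called in APAP (6.28%) in place of 5, and 3 in MDA (10.4%) in place of 5, against either control, with fewer mice in each fit. Within numbers above 4, Mt2 in GAL against all vehicles was -0.10. The cause of these shifts was not tested.

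With the replicate number as a block, 3 members were called in ANIT (6.84% of all genes), 0 in APAP (1.65%) and 3 in MDA (19.2%) against Ctrl, in place of 5 each. What same-numbered mice share beyond the number is not given in the sources used here. Correlations of their deviations ran from -0.145 to 0.307, the highest in TAA. Treated mice correlated best with their own number in 1 of 4 (ANIT), 1 of 4 (APAP), 0 of 7 (MDA) and 1 of 4 (TAA).

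With 1 mouse left out, the members called ranged from 1 to 3 in CCl4 against all vehicles (1 without CCl4 mouse 1, 6, 10 or 12, with 50.3% to 50.9% of all genes called) and from 0 (without CIP mouse 8; 9.49% of all genes) to 4 (without GAL mouse 2; 42.5%) in GAL against CIP. The log2 ratio of Mt1 to Mt2 ranged from -1.08 to -0.94 in ANIT against Ctrl, from -1.0 to -0.86 against all vehicles, and from -0.15 to 0.03 in GAL against all vehicles, where it changed sign without GAL mouse 7. As a difference of medians it was -0.96 in ANIT (adjusted p 0.0589) and -0.72 in CCl4 (adjusted p 0.106) against all vehicles. Number ranges were added after the data had been seen for this ratio. Numbers 1 to 4 gave -1.73 in APAP and -1.65 in TAA against either control and -1.93 in ConA against all vehicles, where the test could not go below p 0.0571 (APAP, ConA) or 0.133 (TAA), so that no call was possible. Numbers above 4 gave -0.53 (Ctrl) and -0.54 (all vehicles) in APAP, -0.51 in CCl4 and 0.19 in GAL against all vehicles. Depth limits Mt3 and Mt4, and 2 saline mice per route limit the injected compounds.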

Other observations

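Genes that handle copper, iron and manganese, metals that also pass through metallothionein, ZIP14 or ZnT10, were counted from a list of 9, all tested against the vehicle of the route. The share called was 22.2% in ANIT (beside 28.2% of all genes), 44.4% in APAP (31.8%), MDA (33.8%) and TAA (50.5%), 77.8% in CCl4 (33.5%), 33.3% in GAL (28.5%) and 55.6% in ConA (34.2%). With 9 genes these shares are coarse, and those of ANIT, APAP, MDA, TAA and GAL lie near or below the background. CCl4 had 2 higher and 5 lower, led by the transferrin receptor Tfrc (log2 fold change 1.61, but 0.64 and not called against all vehicle livers, adjusted p 0.208) and the copper chaperone Ccs (-1.33). GAL had 3 lower and none higher, led by Ccs (-2.51) and the copper importer Slc31a1 (-2.25). TAA had 1 higher and 3 lower, led by Slc31a1 (-1.41) and the copper exporter Atp7b (-1.23). APAP also had 1 higher and 3 lower, led by Ccs (-1.08), with Sod1 (-0.57) and Atp7a (0.57) next. In ConA, with 2 higher and 3 lower, the iron exporter Slc40a1 was at -4.93 and Hamp, the iron hormone hepcidin, at 2.57. In that group the summed level of 5 Kupffer cell markers was 22.9 to 49.8 CPM, against 151 to 437 CPM in vehicle livers, and its part in the Slc40a1 result was not tested. ANIT had 2 higher and none lower, Hamp (1.17) and Slc40a1 (0.73), and MDA 2 higher and 2 lower, led by Slc40a1 (0.86) and Hamp (0.74).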
